A study of Arabidopsis thaliana with 3 samples.

Results

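The regions described here are the long islands of OX ZFHD10, an Arabidopsis thaliana line that overexpresses ZFHD10 and was studied by chromatin immunoprecipitation with an antibody to green fluorescent protein (GFP) and sequencing (ChIP-seq). An island is a stretch of the genome that the authors' peak caller reported as enriched for reads. A long island was one of 2500 bp or more on the 5 nuclear chromosomes, counted from its first to its last base. There were 834 of these among 16122 OX ZFHD10 islands, or 5.17% (95% Wilson interval 4.84 to 5.53). They were chosen by their length in this library, so that their length, their reads and their read density are given as descriptions, with no test.

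The study had 3 libraries, 1 each of wild-type Col-0, OX TZP (a line overexpressing TZP) and OX ZFHD10, all from 7-day-old seedlings grown in low blue light and precipitated with anti-GFP. GFP appears in the title of every library. The labels name neither the promoter of a construct nor the number of independent lines. They give no locus for ZFHD10, which was taken as HB23 (AT5G39760), a gene the annotation also lists as ZINC FINGER HOMEODOMAIN 10. Island lists of OX ZFHD10 and OX TZP were analysed, a Col-0 list was not used here, and with 1 library a group nothing here could be checked on a replicate. The OX ZFHD10 list held 4731495 reads in its nuclear islands and the OX TZP list 2028493. Whole-library depth is unknown, so densities are compared within a list only, and all intervals cover counting error alone. Both lines carry an overproduced protein, and the islands describe that state.

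Zinc-finger homeodomain (ZF-HD) proteins are plant transcription factors that pair a zinc-finger domain for protein contacts with a homeodomain that binds DNA. TZP, a nuclear zinc-finger protein with a PLUS3 domain, acts in blue-light control of seedling growth and in flowering. Light acts on the growth of a seedling partly through hormones, whose receptors pass their signals to transcription factors.

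Long islands covered 2.92 Mb in all, which was 17.6% of the length and 19.9% of the reads of the OX ZFHD10 list. Their median length was 3150 bp, with quartiles of 2750 and 3800 bp, and the longest had 10750 bp. Of the 834, 176 had at least 4000 bp, 36 at least 6000 bp and 3 at least 10000 bp. The threshold fell in the middle of a smooth run of lengths: 45 islands had exactly 2500 bp and a median of 299.6 reads per kb, and 48 just outside it had 2450 bp and a median of 285 reads per kb.

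Read density, the reads of an island divided by its length, was higher in long islands than in the list as a whole. The median was 310 reads per kb (quartiles 271 and 356, range 174 to 595), against 260 (quartiles 226 and 305) in the 15288 shorter islands. At or above the list's median of 262 lay 662 of the 834 (79.4%, Wilson 76.5 to 82.0). Among the 100 densest islands 5 were long, close to their 5.17% of the list, and the best rank of a long island was 40. Within the long islands the median density went from 296 at 2500 to 2950 bp (336 islands) to 314 at 3000 to 3950 bp (322 islands), 324 at 4000 to 5950 bp (140 islands) and 335 at 6000 bp or more (36 islands). The quartile ranges of neighbouring length classes overlapped.

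**Figure D1:**
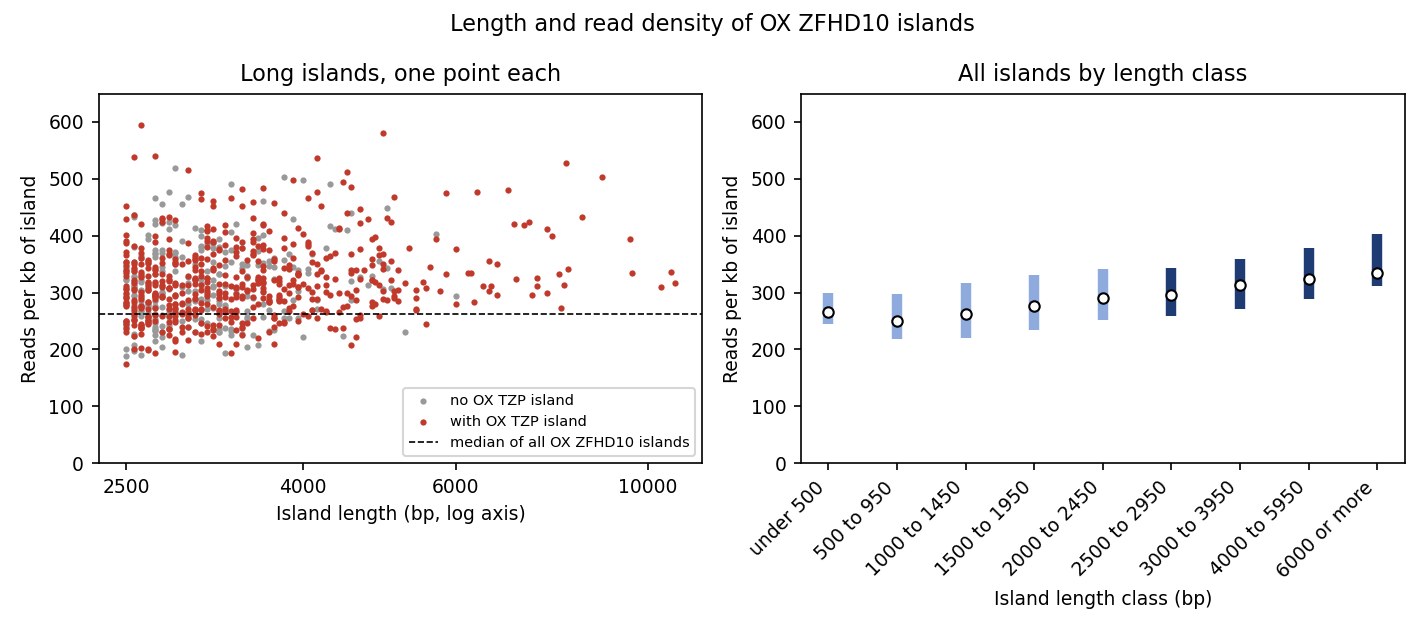
Left, each of the 834 long OX ZFHD10 islands by its length (log axis, bp) and its reads per kb, in red where an OX TZP island overlaps it and in grey where none does; the dashed line is the list's median of 262 reads per kb. Right, the median (circle) and quartiles (bar) of reads per kb for all OX ZFHD10 islands by length class, light for shorter and dark for long islands; medians lie between 251 and 335, and the bars of neighbouring classes overlap.

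Most long islands lay at the ends of protein-coding genes and spread over the space between them. A single gene end was met by 281 (33.7%, Wilson 30.6 to 37.0), and a whole gene lay inside 269 (32.3%, 29.2 to 35.5). Parts of 2 or more genes, with no whole one, were met by 207 (24.8%, 22.0 to 27.9). Some of these, such as the island at MYC2, held no whole space between genes. Another 69 (8.27%, 6.59 to 10.3) lay between genes without reaching one, and 8 (0.959%, 0.487 to 1.88) lay wholly inside genes and held no whole one. The island at D14, which also met no space, was counted with those that held a whole gene. Median density was 308 reads per kb at single gene ends, 309 where a whole gene was inside, 322 where 2 or more genes were met in part, 294 between genes and 291 inside genes. Each of these medians lay within the quartile range of all long islands.

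By at least 1 bp the long islands overlapped 1283 of 27444 protein-coding genes (4.67%), while 13612 were met by shorter islands alone and 12549 by none. A long island touched 1 gene in 340 cases, 2 in 320, 3 in 96, 4 in 7 and 5 in 2. The 301 genes wholly inside were short, with a median length of 1289 bp, against 2226 bp for all touched genes and 2078 bp for all protein-coding genes. A gene can lie wholly inside only an island at least as long as itself, so short genes are favoured by this definition. Outside protein-coding genes lay 63.1% of the long islands' length, against 51.9% for the shorter islands and 45.9% of the chromosomes up to the last gene.

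The intergenic spaces they met were wide. A space is the stretch between neighbouring protein-coding genes, and the 1059 spaces met by long islands had a median width of 2283 bp, against 1020 bp for spaces met by shorter islands and 877 bp for all 23810 spaces. A wide space offers more bases for an island to meet, and the space at the middle intergenic base was 5770 bp wide. That value weights each space by its bases, so it is not on the same footing as the medians over spaces. How far the bases on offer account for the widths met was not tested. Among spaces of 2500 to 9999 bp, 453 of 4543 (9.97%, Wilson 9.13 to 10.9) met a long island, against 1.62% (1.37 to 1.90) of those under 500 bp. Above that width the share did not go on rising. It was 7.67% (5.52 to 10.6) at 10000 to 19999 bp, and of the 274 spaces of 20000 bp or more none met a long island (0%, Wilson upper bound 1.38%), although 19.0% of them met a shorter one.

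Nearly as many long islands filled a space as did not. A whole intergenic space lay inside 404 of them (48.4%, Wilson 45.1 to 51.8), against 24.9% (24.3 to 25.6) of the shorter islands, which have less length to do so. The 493 spaces wholly inside had a median width of 1233 bp. The widest was the 8393 bp space beside TEM1.

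**Figure D2:**
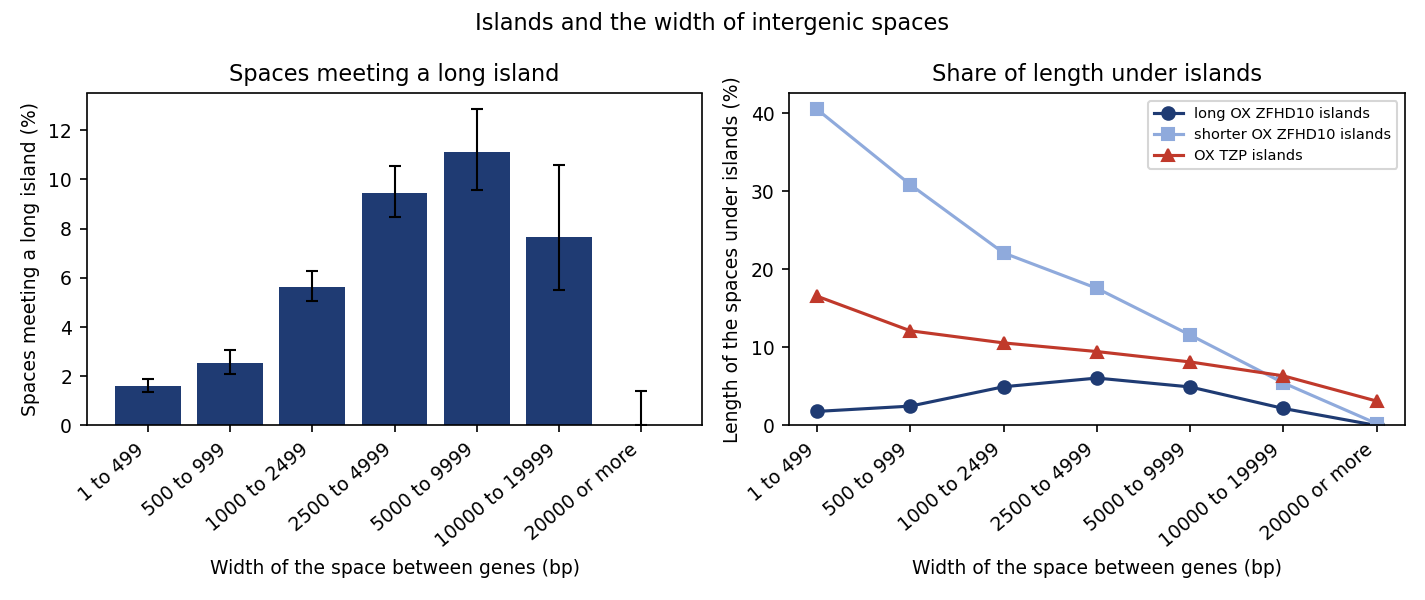
Left, the share of intergenic spaces of each width (bp) that meet a long OX ZFHD10 island, with 95% Wilson intervals; the share is 11.1% at 5000 to 9999 bp and 0% at 20000 bp or more. Right, the share of the summed length of those spaces that lies under long OX ZFHD10, shorter OX ZFHD10 and OX TZP islands; for long islands it is 6.08% at 2500 to 4999 bp, and shorter islands cover 40.5% of the narrowest spaces.

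Long islands were spread over all chromosomes, with 6.14 to 7.72 per Mb. None lay in the 178 bins of 100 kb that hold more annotated pseudogenes than protein-coding genes (0 of 834, Wilson upper bound 0.458%), against 1.27% of shorter OX ZFHD10 islands and 4.39% of OX TZP islands. The pseudogenes of the annotation were touched in 5 of 3917 cases (0.128%) and transfer RNA genes in 9 of 625 (1.44%). Long non-coding RNA genes were touched in 180 of 3480 (5.17%), close to the share of protein-coding genes.

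The longest island, of 10750 bp at chr5:26899751-26910500 (TAIR10, as all island positions here), held the whole of LBD37, which encodes a LOB-domain repressor of nitrogen-responsive and anthocyanin genes. With its 3397 reads it had a density of 316 reads per kb (exact 95% Poisson interval 305 to 327). It reached 15.6% into AT5G67430 and filled the space between both genes, and on the other side of LBD37 it covered 99.7% of the 4129 bp space to AT5G67411. The second, of 10650 bp at chr3:1057851-1068500, held NAC047, a NAC transcription factor gene, reached into the apyrase gene APY1 and had 335 reads per kb (325 to 347). A separate long island of 2750 bp, chr3:1054851-1057600, lay directly before it at the next NAC gene, NAC046, with 230 reads per kb.

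TEM1, a repressor of flowering of the RAV family, lay inside the third, of 10350 bp at chr1:8981401-8991750, which had 311 reads per kb (300 to 321). Its density was thus close to the median of the long islands, and most of its length lay in the space rather than over the gene: 17.4% of it was inside protein-coding genes. RAV2, the symbol under which the annotation lists its close relative TEM2, lay inside another of 7200 bp, chr1:25875201-25882400, at 418 reads per kb (403 to 433).

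The third gene named for this family, RAV1, was flanked by the longest island that touched no protein-coding gene. It had 8850 bp at chr1:4530951-4539800, covered 74.1% of the 11945 bp space between GATL3 and RAV1 and had 4447 reads, the highest number in any OX ZFHD10 island. Its 502 reads per kb (488 to 517) ranked 161 of 16122. The end of RAV1 itself carried a neighbouring long island of 2500 bp, chr1:4540051-4542550, with 349 reads per kb, and on the other side a long island of 7300 bp, chr1:4522151-4529450, met AT1G13230, RTFL17 and GATL3 with 424 reads per kb. Since neighbouring stretches of enrichment are kept apart or joined by the caller's gap rule, these can be read as separate islands or as 1 interrupted stretch.

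Also among the 12 longest was an island of 9550 bp, chr1:29358351-29367900, over RAP2.4, a gene of the AP2/ERF transcription factor family, with 394 reads per kb (382 to 407). The island of 8400 bp at chr4:14820251-14828650 held XTH18, reached 24.6% into XTH24 and filled the 5161 bp space between these genes of cell wall enzymes that cut and rejoin xyloglucan; it had 432 reads per kb (418 to 447). IAA9, a repressor of auxin responses, had its end joined to that of AT5G65660 by an island of 8050 bp, chr5:26246151-26254200, with 527 reads per kb (511 to 543), which was also among the 10 densest. Those 3 islands thus differed in density beyond their counting intervals.

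The other 5 of the 12 longest lay at genes with fewer named functions. An island of 9600 bp, chr4:13807701-13817300, held 3 whole genes between PEL1, a gene of ribosome rescue, and AT4G27660, at 335 reads per kb. One of 8100 bp, chr1:30238351-30246450, ran from the DNA repair gene ATXRCC1 over AT1G80440 and AT1G80450 at 342 reads per kb. Islands of 8000 bp at AT3G18940 and AT3G18950, 7950 bp at AT1G78260 and 7900 bp over AT5G64110 had 312.5, 272 and 332 reads per kb. In density the 12 longest therefore ran from 272 to 527 reads per kb.

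**Figure D3:**
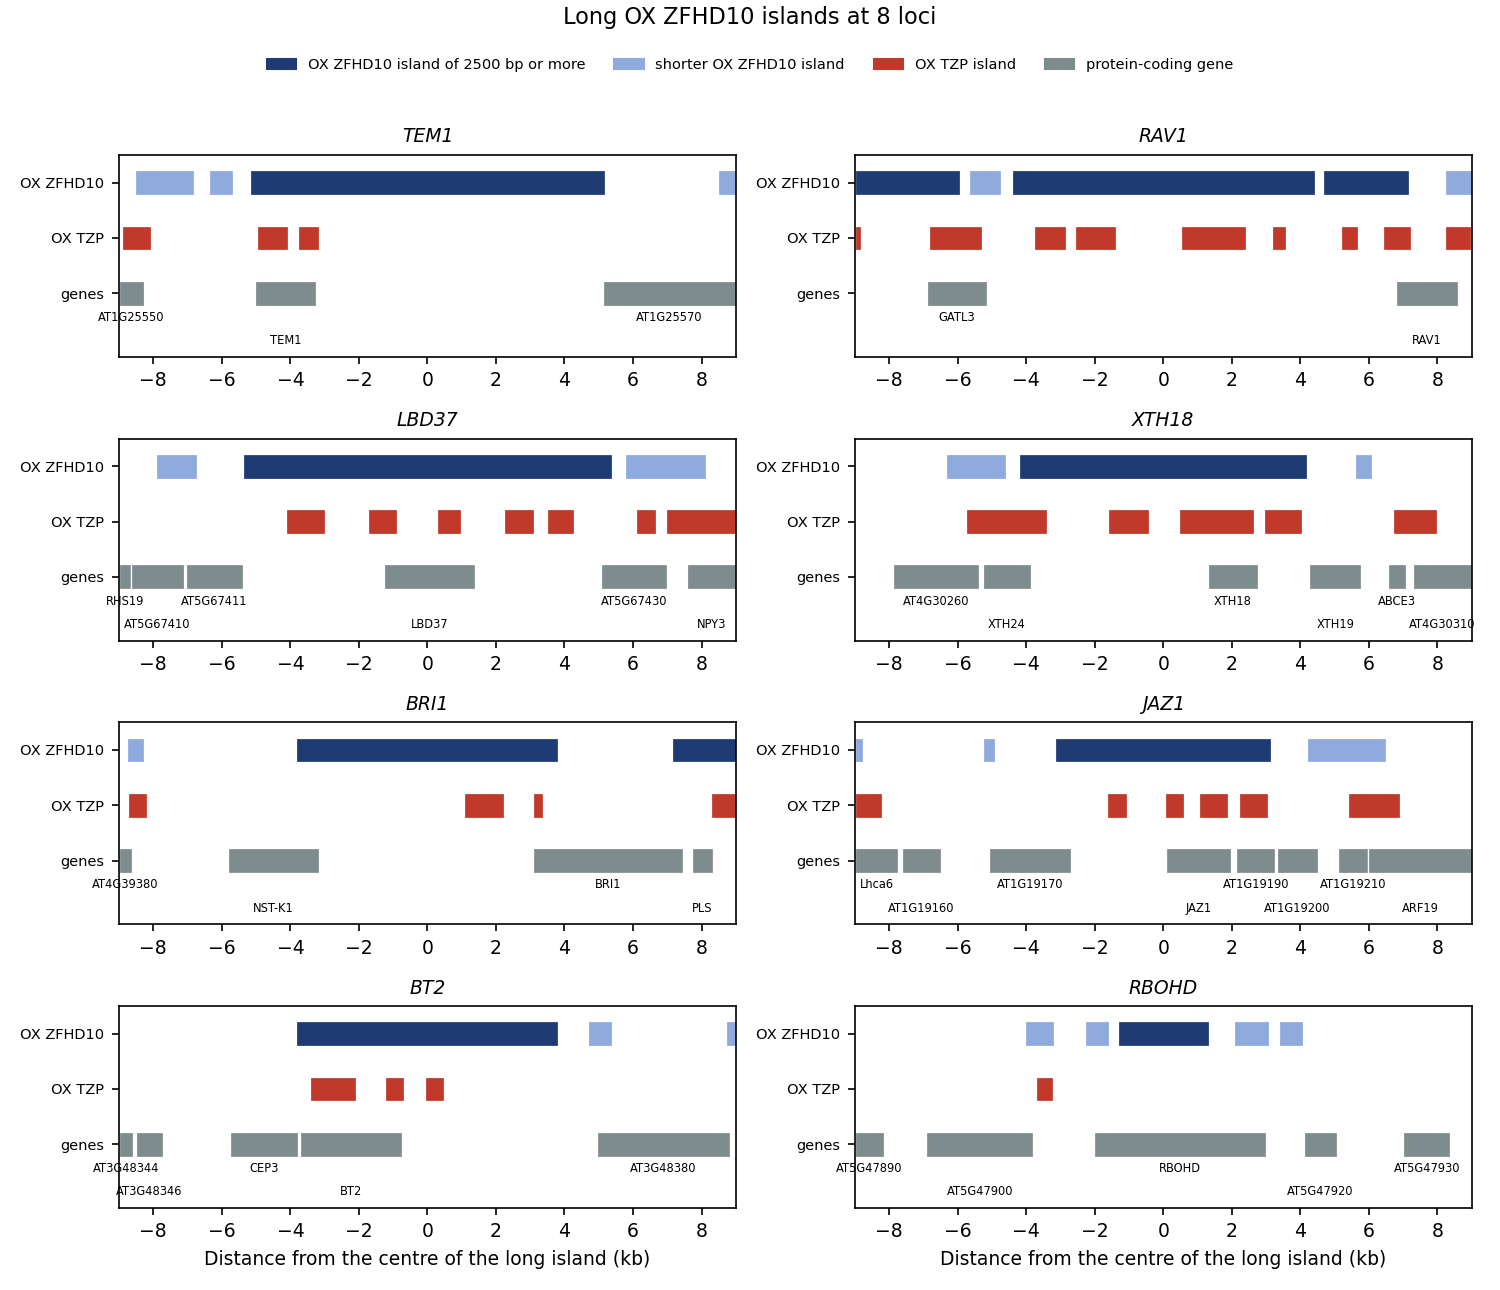
Maps of 8 loci, 18 kb each, centred on the long OX ZFHD10 island (dark blue) named by a gene it holds or flanks, with shorter OX ZFHD10 islands in light blue, OX TZP islands in red and protein-coding genes in grey; the horizontal axis is the distance from the centre of the long island in kb. At TEM1, RAV1 and BRI1 most of the long island lies between genes, at JAZ1 and BT2 a whole gene lies inside, and at RBOHD the long island lies inside the gene.

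The densest long islands were not the longest. The top 1 had 2600 bp at chr5:23972601-23975200 between ZEU1, a thymidylate kinase gene, and AT5G59450, with 595 reads per kb (565 to 625). It was followed by an island of 4950 bp at AT5G61990, chr5:24902551-24907500, with 581 reads per kb (560 to 603). Then came islands over the histone H2A gene HTA7 (540 reads per kb), at AT1G28260 (539), at the beta-galactosidase gene BGAL4 (537), at IAA9 (527), at the sugar transporter gene SWEET2 (519), at AT4G17080 (516), at HB-12 (512), a homeodomain leucine zipper gene of drought and abscisic acid responses, and over AT1G80180 (504). The intervals of the last 5 overlapped. At the low end, islands at ALF5, between AT1G52180 and AT1G52190, over MYB112, over UPI and at AT5G62280 had 174 to 193 reads per kb, and their intervals overlapped as well.

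The gene lists that follow were chosen with earlier results of these data known, so their shares are descriptions and no test. They were not matched to other genes by the width of the flanking spaces. Of 41 genes on a list of hormone receptors, 8 overlapped a long island (19.5%, Wilson 10.2 to 34.0), 25 shorter islands only and 8 none, against 4.67% of all protein-coding genes for long islands. With only the 662 long islands at or above the list's median density the 8 became 5. The share of all genes was not recounted for those islands, and the 4.67% belongs to all 834. BRI1, the brassinosteroid receptor, had a long island at each end. One of 7650 bp, chr4:18317551-18325200, had 412 reads per kb (398 to 427) and filled the 6230 bp space to NST-K1, and the other, of 4250 bp, chr4:18328501-18332750, had 361 (343 to 379) and reached WRKY13. GID1B and GID1A, receptors of gibberellin, had islands of 4150 bp (chr3:23285701-23289850, 271 reads per kb) and 3450 bp (chr3:1427451-1430900, 295). The auxin receptor gene TIR1 had 3950 bp (chr3:23276001-23279950, 335 reads per kb).

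PYL5, which encodes an abscisic acid receptor, lay wholly inside 3600 bp (chr5:1608951-1612550, 419 reads per kb). BRL3, a relative of BRI1, had 3200 bp (chr3:4343801-4347000, 236 reads per kb). The ethylene receptor gene EIN4 and the strigolactone receptor gene D14 had islands of 2600 and 2500 bp, and the cytokinin receptor gene AHK4 was flanked. Apart from PYL5 and D14 these islands met the ends of the receptor genes, with 7.57 to 27.1% of the gene under the island.

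On a separate list of 49 receptor kinases and partners, 3 overlapped a long island (6.12%, Wilson 2.10 to 16.5), an interval that holds the 4.67% of all genes and overlaps that of the hormone receptors, which include the receptor kinases BRI1 and BRL3. TMK1, a kinase of auxin responses, had 4550 bp (chr1:24634401-24638950, 334 reads per kb), the peptide receptor gene PSY1R 3000 bp (chr1:27220751-27223750, 269) and RLP44, a receptor-like protein gene of the brassinosteroid and wall response, lay whole inside 2550 bp (chr3:18449801-18452350, 313). THE1 was flanked. By the words in gene names, 4 of 165 receptor kinase genes were touched (2.42%, 0.947 to 6.07). That count leaves out TMK1, which falls under other kinases by its name. It also leaves out the touched receptor kinase genes BRI1, BRL3 and PSY1R, so it describes names and not the full share of receptor kinases.

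Brassinosteroid and gibberellin genes other than receptors were touched in 6 of 41 cases (14.6%, Wilson 6.88 to 28.4). GA2OX6, an enzyme that inactivates gibberellin, lay whole inside 4600 bp (chr1:485401-490000, 253 reads per kb). IBH1, a basic helix-loop-helix (bHLH) repressor of cell elongation, had 4300 bp at 491 reads per kb (chr2:17905401-17909700; 470 to 512). The DELLA growth repressor genes GAI (4150 bp, chr1:5145551-5149700) and RGA (3700 bp, chr2:252551-256250) had 287 and 346 reads per kb. ROT3, a cytochrome P450 gene of brassinosteroid synthesis, had 3600 bp (279 reads per kb), and BZR1, a transcription factor gene of the brassinosteroid response, 3000 bp (326 reads per kb). CPD, another synthesis gene, was flanked.

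On the list of ethylene, abscisic acid, cytokinin and jasmonate genes, 9 of 51 were touched (17.6%, Wilson 9.57 to 30.3). JAZ1, a repressor of jasmonate responses, lay whole inside 6300 bp (chr1:6618551-6624850, 283 reads per kb). MYC2, the bHLH factor that JAZ proteins repress, had 91.4% of its length under 3650 bp (chr1:11798401-11802050, 230 reads per kb). JAZ3 (3400 bp, 338 reads per kb), the phosphatase gene ABI1 (3150 bp, 275), the bZIP factor gene ABF3 (3100 bp, 247) and the cytokinin response regulator gene ARR1 (2850 bp, 372) followed in length. ABI2, CTR1 and ARR5 were the other members. JAZ1 and MYC2 lay under the median density of long islands, while ARR1 lay above the upper quartile of long islands.

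Auxin genes were touched in 6 of 52 cases (11.5%, Wilson 5.40 to 23.0), and IAA9 was not on that list. GH3.3, which encodes an auxin-conjugating enzyme, had 3900 bp (chr2:9866451-9870350, 277 reads per kb), IAA3 3450 bp (chr1:1129301-1132750, 348) and the transporter gene PIN2 3250 bp (chr5:23097751-23101000, 194). The response factor gene ARF2 had 3100 bp (chr5:24907851-24910950, 408), GH3.5 3050 bp (chr4:13651001-13654050, 476) and ARF19 2750 bp (chr1:6632651-6635400, 321). Among these PIN2 had the lowest density and GH3.5 the highest, with intervals of 180 to 210 and 452 to 501. A further island of 4350 bp, chr3:8183901-8188250, lay in the 12510 bp space between IAA2 and IAA7 without reaching either, and another flanked ARF6.

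In light signalling 4 of 41 genes were touched (9.76%, Wilson 3.86 to 22.5), and the interval again holds the share of all genes. PHYA, the far-red light receptor gene, had 4600 bp (chr1:3100151-3104750, 286 reads per kb), the B-box gene BBX20 4250 bp (chr4:18205401-18209650, 328) and PIF5, a bHLH factor that promotes growth, 3400 bp (chr3:21829801-21833200, 315). The fourth was TZP itself. A long island of 3050 bp, chr5:17527201-17530250, lay wholly inside TZP with 227 reads per kb (210 to 244), and BBX21 was flanked.

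Of 89 transcription factors on a further list, 12 were touched (13.5%, Wilson 7.88 to 22.1). After TEM1 and TEM2 the longest were at the homeodomain leucine zipper genes HB-5 (5250 bp, chr5:26103701-26108950, 231 reads per kb), HB-16 (4550 bp, chr4:18572051-18576600, 287), HB-12 (4500 bp, chr3:22915001-22919500, 512) and HB-7 (4450 bp, chr2:19166601-19171050, 494). HB-12 and HB-7 are close relatives that both respond to drought, and their islands, with intervals of 491 to 533 and 474 to 515, ranked 135 and 186. AP2, PRR5, ZAT12, SMZ, BLH1 and KNAT4 were the other members.

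The ZF-HD family itself had 3 of 17 (17.6%, Wilson 6.19 to 41.0). HB34 lay whole inside 4000 bp (chr3:10938151-10942150) at 497 reads per kb (476 to 520), rank 182, and HB32 inside 3200 bp (chr1:5046701-5049900) at 393. MIF1, which encodes a short zinc-finger protein without a homeodomain, had 3500 bp (chr1:28047801-28051300) at 292. HB23, taken as ZFHD10, met shorter islands only.

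Cell wall genes were touched in 4 of 24 cases (16.7%, Wilson 6.68 to 35.9), of which XTH18 and XTH24 share 1 island. XTH22 lay whole inside 3200 bp (chr5:23306551-23309750, 262 reads per kb), and the cellulose synthase gene CESA6 had 2750 bp (300 reads per kb); the expansin gene EXPA1 was flanked. No gene of a list of 20 housekeeping genes was touched, with a Wilson upper bound of 16.1%, and all 20 met a shorter island.

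**Figure D4:**
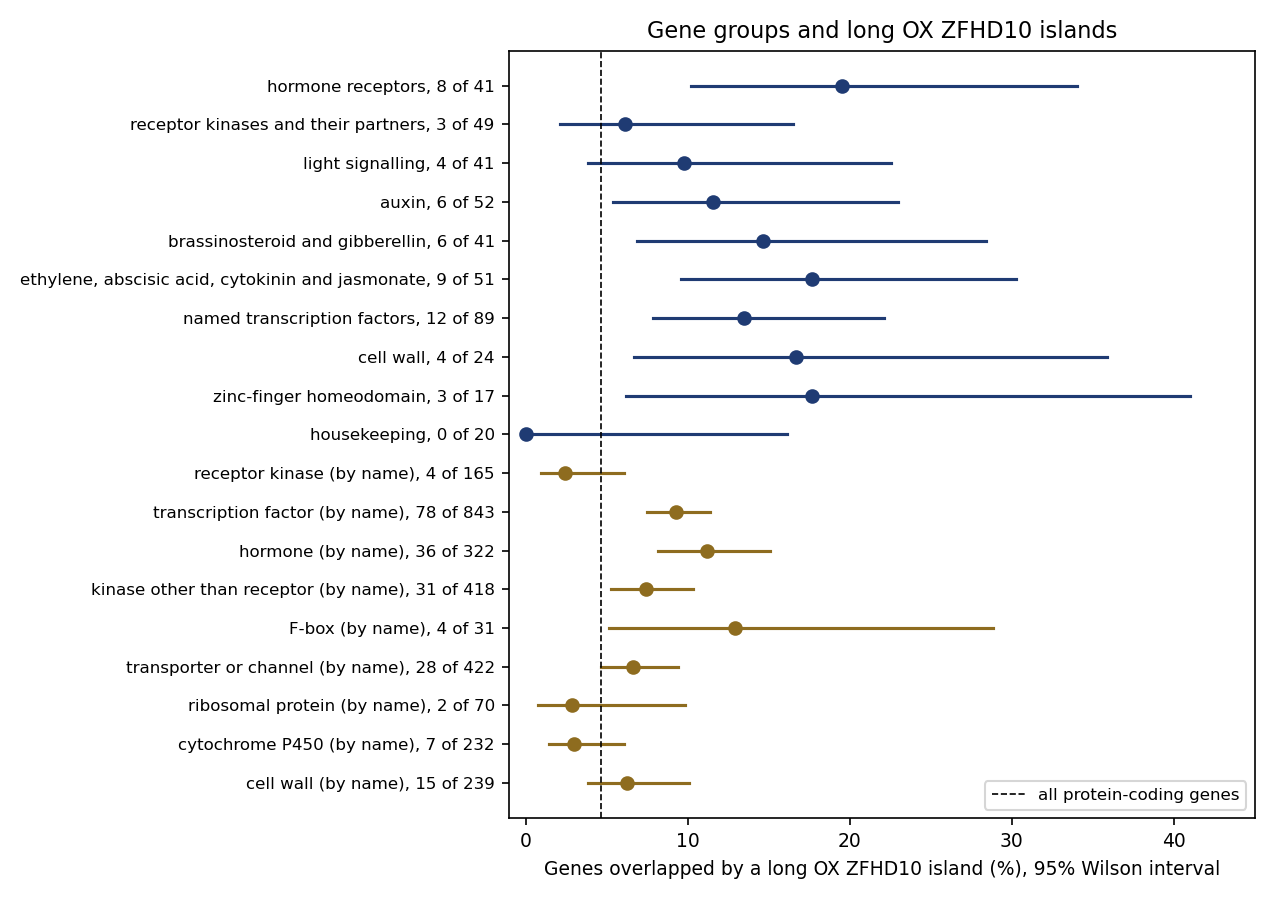
Share of the genes of each group overlapped by a long OX ZFHD10 island, with 95% Wilson intervals, for the 10 gene lists (blue) and for 9 families found by words in gene names (brown); the counts stand beside the names and the dashed line marks the 4.67% of all protein-coding genes. By name, transcription factor genes (9.25%), hormone genes (11.2%), kinase genes other than receptors (7.42%) and F-box genes (12.9%) lie to the right of the line with their whole intervals, and receptor kinase genes (2.42%) lie to the left with an interval that crosses it. The line counts genes with and without names, and named genes are more frequent among touched genes than among all. The words for receptor kinases missed touched genes such as BRI1 and PSY1R. The gene lists were chosen with earlier results of these data known, so their place beside the line is a description.

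Over the whole annotation, transcription factor genes by name were touched in 78 of 843 cases (9.25%, Wilson 7.48 to 11.4) and hormone genes by name in 36 of 322 (11.2%, 8.19 to 15.1). Kinase genes other than receptors, with 31 of 418 (7.42%, 5.27 to 10.3), and F-box genes, with 4 of 31 (12.9%, 5.13 to 28.9), also had intervals above the 4.67% of all genes. Transcription factors were 6.08% of the genes touched by long islands, 2.75% of those met by shorter islands alone and 3.07% of all. Names are not spread evenly, since 46.1% of the touched genes had a name other than their locus, against 37.8% of all. Among named genes alone the shares of transcription factors were 12.3%, 6.12% and 7.86%. In the same order hormone genes had 5.57%, 2.18% and 2.42%. Kinase genes other than receptors had 4.90%, 4.79% and 3.89%, and F-box genes 0.169%, 0.273% and 0.251%. Among named genes, F-box genes were thus no more frequent at long islands, and these kinases had nearly the same share at long and shorter islands. The hormone words also caught factor genes such as ERF4, ERF5, RAV1 and TEM1, and 8 touched genes were in both families. Hormone and transcription factor genes by name are thus not separate groups. Together these 2 families accounted for 106 genes and for 109 of the 834 long islands (13.1%), so most long islands met no gene found by their words. The word search missed touched factor genes such as LBD37, RAP2.4, GAI and RGA. It also missed touched receptor genes such as TIR1, GID1A and GID1B. These counts therefore describe names and do not give the full share of factor and hormone genes.

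Both kinds of gene stand beside wide spaces. The median of the widest flanking space was 2756 bp for transcription factor genes, 2867 bp for hormone genes and 1429 bp for all protein-coding genes. For receptor kinase genes it was 1198 bp. At a matched width of 5000 to 9999 bp, 25 of 165 transcription factor genes were touched (15.2%, Wilson 10.5 to 21.4), against 8.20% (6.56 to 10.2) of genes with other names and 4.87% (3.88 to 6.11) of genes with no name. That was the only one of 7 width classes in which the intervals of transcription factors and other names did not overlap. The shares were 8.30% and 6.89% at 1000 to 2499 bp, 9.20% and 8.38% at 2500 to 4999 bp, and 16.7% and 5.63% at 10000 to 19999 bp, and under 500 bp 0 of 74 transcription factor genes and 1.41% of other named genes were touched. Hormone genes had 15.5% (8.88 to 25.7) at 1000 to 2499 bp, 12.4% (7.22 to 20.4) at 2500 to 4999 bp and 14.8% (7.96 to 25.7) at 5000 to 9999 bp. At 1000 to 2499 bp the interval of hormone genes lay above that of other names, and in the other width classes they overlapped. Other names also held factor and hormone genes that the word search missed, such as LBD37, RAP2.4, RGA and TIR1. All of these contrasts are therefore between groups by name only. The part of space width in the shares of the families was otherwise not tested.

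OX TZP islands lay within most long OX ZFHD10 islands. At least 1 bp of an OX TZP island was found in 549 of the 834 (65.8%, Wilson 62.5 to 69.0), against 31.4% (30.7 to 32.2) of the shorter islands. A longer island has more room for an overlap, and the share of length covered differed less: 25.8% of the long islands' length lay under OX TZP islands, 21.7% of the shorter islands' and 10.1% of the chromosomes'. The sources name no control library for either list.

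Within the long islands the cover went up with length. OX TZP islands met 56.8% of those of 2500 to 2950 bp, 65.2% at 3000 to 3950 bp, 80.7% at 4000 to 5950 bp and 35 of 36 at 6000 bp or more (97.2%), where the exception was the island of 6000 bp at the xylan synthesis gene IRX14. Covered length was 23.8%, 24.5%, 28.6% and 31.4% in the same order, after 27.1% at 2000 to 2450 bp. The last step under the threshold was thus covered more than the first above it.

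**Figure D5:**
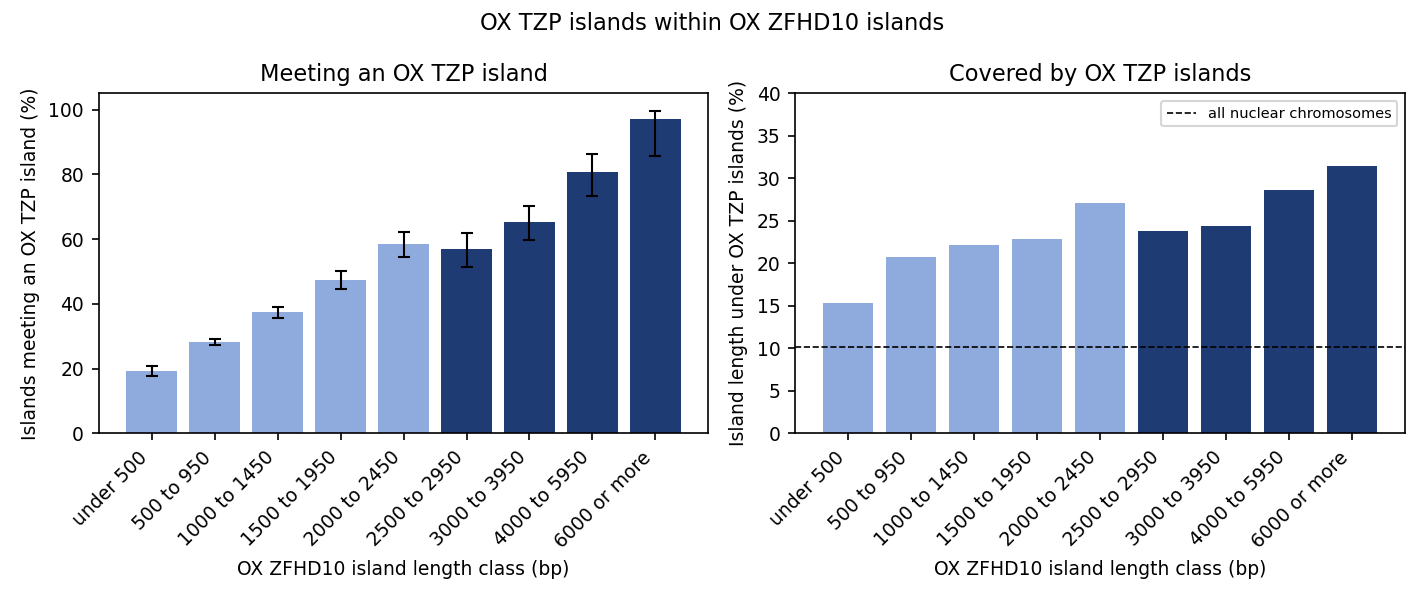
Left, the share of OX ZFHD10 islands of each length class (bp) that an OX TZP island overlaps, with 95% Wilson intervals, light for shorter and dark for long islands; it runs from 19.3% under 500 bp to 97.2% at 6000 bp or more. Right, the share of the summed island length under OX TZP islands, from 15.3% to 31.4%, with the 10.1% of all nuclear chromosomes as a dashed line.

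Several OX TZP islands often stood inside 1 long island. A single one was met by 363 long islands, 2 by 147, 3 by 32, 4 by 6 and 5 by 1, the island over LBD37, where they covered 40.9% of the length in 5 separate stretches of 153 to 190 OX TZP reads per kb. In all 779 OX TZP islands (6.67% of 11675) met a long island, and 540 of them (69.3%) lay wholly inside. Their median length was 950 bp, against 900 bp for OX TZP islands elsewhere, and their median density 172 against 162 OX TZP reads per kb, a difference smaller than the spread from 159 to 185 between the quartiles. Of the 215 OX TZP islands that had 2500 bp or more themselves, 37 (17.2%, Wilson 12.8 to 22.8) met a long OX ZFHD10 island and 128 (59.5%, 52.9 to 65.9) any OX ZFHD10 island.

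Where in a long island OX TZP islands stood was counted by their midpoints over 782 pairs, with each long island divided into 5 zones of equal length. In the 2 outer zones lay 278, in the 2 next to them 308, in the middle zone 126 and outside the long island 70. Per zone the numbers are of similar size. Inside genes 30.0% of the long islands' length was under OX TZP islands, and outside genes 23.3%.

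OX ZFHD10 density hardly differed with the presence of OX TZP islands. Long islands with one had a median of 313 reads per kb (quartiles 275 and 358) and those without one 304 (261 and 352), while their median lengths were 3300 and 2950 bp. Those that touch transcription factor genes had an OX TZP island in 51 of 80 cases (63.75%, Wilson 52.8 to 73.4) and those that touch hormone genes in 28 of 38 (73.7%, 58.0 to 85.0). Both intervals hold the 65.8% of all long islands.

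Fully covered by OX TZP islands were 3 long islands, and 152 (18.2%) were covered by at least 50%. One of the 3 was the island inside TZP, where the OX TZP island of 3150 bp, chr5:17527151-17530300, was the third of its list by density, with 594 reads per kb (568 to 622). OX TZP overexpresses this same gene, so reads from any added copy of it cannot be told apart there from reads of bound DNA. The others lay between MST1 and AGC1.7 (2950 bp, chr1:29806951-29809900, 240 OX ZFHD10 reads per kb) and over AT2G42350 (2550 bp, chr2:17638301-17640850, 242). Next in cover were islands at AT5G62280 (90.7%), the amino acid transporter gene LHT1 (90.2%), the ethylene response factor gene ERF4 (89.7%), NUDT17 (89.6%), JAZ7 (87.7%), AT1G76070 (87.7%) and LEA14 (85.7%). All 3 fully covered islands had an OX ZFHD10 density under the median of the list, while those at ERF4 and NUDT17 had 334 and 394 reads per kb.

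At the 12 longest islands the cover ran from 3.80% over AT5G64110 to 63.1% at XTH18 and XTH24. In the space before RAV1, 4 OX TZP islands covered 50.3% of the long island, with 161 to 222.5 OX TZP reads per kb. At TEM1 the 2 OX TZP islands, of 142 and 185 reads per kb, stood over and beside the gene and covered 14.5% of the long island, so that nearly all of its 8393 bp space was free of them. At BRI1 the cover was 19.0% and 34.1%, at IAA9 19.3%, and at TIR1 8.86%.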

How the data were processed

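Anti-GFP ChIP-seq libraries were made, per the labels' protocols, from tissue fixed with 1% formaldehyde for 15 min, with 1 ng of DNA and 12 PCR cycles, and read as single ends of 75 bp. Tools listed by the submitters' processing notes, without roles, are SICER 1.1, Bowtie 0.12.7, cutadapt 1.5 and HOMER, and the build is TAIR10. The authors deposited unscaled read counts, 1 whole number for each island; that these are counts rests on their values and on SICER's list format. By their names the lists were called at a false discovery rate of 0.1 with windows of 50 bp and gaps of 200 bp, so weak islands are admitted and island length depends on depth and on the gap. The smallest gap in the OX ZFHD10 list was 250 bp. Neither the control library nor the handling of duplicate reads is stated in the labels.

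Islands were grouped by the genotype label, counted from 1 and overlapped by at least 1 bp (Python 3.11.15, pandas 2.3.3, numpy 2.4.6, scipy 1.17.1). Genes came from an annotation of TAIR10.1 without strand, exons or sequence, so the parts of a gene and its upstream and downstream ends could not be separated, and no sequence is shown. Gene positions fitted the islands within 200 bp in 24 of 25 chromosome segments and within 300 bp in all. Wilson and exact Poisson intervals (95%) treat reads and islands as independent, which PCR copies and neighbours are not. Families were found by words in symbols and synonyms. The long islands and all gene lists were chosen with earlier results of these data known. Named were the 12 longest, the 10 densest, the 5 least dense and the 10 most covered by OX TZP, islands of 2500 and of 2450 bp as groups because of ties, and list members with values for up to 6 in order of island length; other genes were chosen after their values were seen. Alternatives changed the minimum length, density, overlap, gene types and joining. The overlap and space methods were tested on simulated lists.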

Additional observations from a re-analysis of the deposited data

How the results depend on the processing

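With a minimum of 2000 bp there were 1458 long islands, with a median of 302 reads per kb, a whole intergenic space in 44.9% and a median space of 2055 bp. With 3000 bp there were 498, with 318 reads per kb, an OX TZP island in 71.9% and a whole space in 54.8%. Joining islands no more than 500 bp apart, an alternative chosen after seeing the data, gave 1374 with 270.5 reads per kb. There the gaps counted in the length but brought no reads, which lowers this density by construction. An OX TZP island was met in 62.5% when 50% of it had to lie inside, and in 47.6%, with 16.7% of length, when OX TZP islands under their list's median density were left out. Counting all annotated genes gave a whole space in 57.4% and a median space of 1710 bp, and a space covered by at least 50% counted in 77.1%. Transcription factors were 7.61% of genes covered by at least 50%. Long islands at or above the median density of the list numbered 662. The other values stayed within their counting interval. Of 30 recounts of the gene lists, 8 moved by more than 1.5 times. At 2000 bp receptor kinases went from 3 to 6, light signalling from 4 to 8, brassinosteroid and gibberellin genes from 6 to 12, ethylene to jasmonate genes from 9 to 16, ZF-HD genes from 3 to 7 and housekeeping genes from 0 to 1. At 3000 bp the ethylene to jasmonate count was 5, and at or above median density the hormone receptors fell from 8 to 5. The number of long islands itself moved from 834 to 1458, 498 and 662 at these settings. The share of all protein-coding genes touched changes with it and was not recounted, so these moves cannot be set beside that share. No paired analysis was possible because each group has 1 library. Island number and length depend on depth, gap and threshold, and no result has a replicate.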

Other observations

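Some small families stood out among the genes touched by long islands, and were chosen after their values were seen, so that their shares are descriptions. Of 5 genes named for BTB and TAZ domains, 4 were touched. BT2, which encodes a scaffold protein of sugar, nitrogen and hormone responses, lay whole inside 7650 bp (chr3:17907651-17915300, 298 reads per kb), while BT5, BT1 and BT4 had ends under islands of 2900, 3300 and 2800 bp with 363, 288 and 369 reads per kb. Of 10 genes with JAZ symbols 4 were touched: JAZ7, like JAZ1, lay whole inside its island, and JAZ6 had 3200 bp at 297 reads per kb. Genes named as ethylene-responsive factors were touched in 12 of 42 cases (28.6%, Wilson 17.2 to 43.6), with 8 whole inside, among them ERF9, ERF4 and ERF-1. For WRKY genes the count was 9 of 68 (13.2%), for NAC genes 11 of 100 (11.0%) and for homeobox genes 11 of 95 (11.6%). The share of all protein-coding genes was 4.67%. MADS genes had 1 of 98 (1.02%, Wilson 0.180 to 5.56), AGL18, which was covered to 1.12%.

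Of the 8 long islands wholly inside genes that held no whole gene, 2 lay in genes of NADPH oxidases, which produce reactive oxygen species: RBOHD (2650 bp, chr5:19397751-19400400, 278 reads per kb, 52.8% of the gene) and RBOH F (2700 bp, chr1:23769851-23772550, 313 reads per kb, 37.4%). The others lay in TZP, BXL2, HEXO3 and, each reaching a second overlapping gene, STP1, AT2G27080 and AT4G20250, from which the last reached PCAP1. Of 326 microRNA genes only 3 were touched (0.920%), a lower share than the 4.67% of protein-coding genes. They were MIR163, MIR8166 and MIR2936, each whole inside a long island, with 311, 424 and 246 reads per kb. The 2500 bp island of MIR163, chr1:24882901-24885400, met an OX TZP island over 28% of its length.

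Long islands more often had a near neighbour than shorter ones. Another OX ZFHD10 island stood within 500 bp of 311 of the 834 (37.3%, Wilson 34.1 to 40.6) and of 20.3% (19.6 to 20.9) of the shorter islands. At LBD38, chr3:18512001-18514650 and chr3:18514901-18517450 were separate long islands of 358 and 382 reads per kb that met the same gene.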
